A study of Mus musculus with 3 samples.

Results

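Ino80, Esr1 and Gt(ROSA)26Sor, 3 of the 55401 mouse gene identifiers in the deposited tables, were followed over single wells of adult mouse heart cells. They were chosen by name, as the gene the study induces and as 2 genes whose rows can collect reads from an inducible transgene, and all 3 were found in each of the 3 libraries. The groups were day 1 and day 2 (genotype labels D1_INO80_OE and D2_INO80_OE) and day 3, whose label lists D3_INO80_OE together with D3_Ctrl. No label or file says which day 3 wells came from which genotype. Every library came from hearts treated with tamoxifen, and the cell type label is adult cardiomyocyte in all of them. The series title gives the line as Myh6-MCM with a floxed Ino80 allele, whereas the genotype labels read as overexpression. No label gives the age or number of animals. Day 0, named in the design text, was not analysed here.

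Ino80 encodes the ATPase of INO80, a multi-subunit complex that slides nucleosomes and exchanges histone variants at promoters and replication forks. MCM is MerCreMer, a Cre recombinase flanked by mutated ligand-binding domains of estrogen receptor alpha, the product of Esr1; tamoxifen binds those domains and lets the recombinase enter the nucleus. The Myh6 promoter, which drives it, is that of the alpha myosin heavy chain and is active in cardiomyocytes. Gt(ROSA)26Sor is the non-coding transcript of the Rosa26 locus, a common insertion site for transgenes. The labels do not say where an added Ino80 copy lies, and gene-level counts merge reads of a transgene with those of the endogenous gene.

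Ino80 (ENSMUSG00000034154.15) lies at chr2:119373042-119477687 on the minus strand of mm10, with 6803 bp of merged exons and no overlapping gene. Esr1 (ENSMUSG00000019768.16) lies at chr10:4611593-5005614 on the plus strand, with 13661 bp of merged exons and no overlapping gene. Gt(ROSA)26Sor (ENSMUSG00000086429.9) lies at chr6:113067428-113077333 on the minus strand, with 1695 bp of merged exons. It overlaps Thumpd3 on the opposite strand over 145 exonic bp, and Setd5 begins 31 bp away. The strand setting of the counting is not given in the sources used here, so reads of Gt(ROSA)26Sor and Thumpd3 cannot be told apart over that stretch.

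The endogenous start sites of Ino80 and Esr1 are shown because reads started by another promoter, such as that of Myh6 in the MerCreMer transgene, fall on the same gene rows without using them. The windows are RefSeq's on GRCm38.p6, from 250 bases before to 50 after the start, 5′ to 3′ on the gene's strand, and 2 of the 3 genes are in the table. Capitals mark matches on either strand to CCAAT or GGGCGG, which do not overlap in these windows.

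Ino80, chr2:119477638-119477937, minus strand: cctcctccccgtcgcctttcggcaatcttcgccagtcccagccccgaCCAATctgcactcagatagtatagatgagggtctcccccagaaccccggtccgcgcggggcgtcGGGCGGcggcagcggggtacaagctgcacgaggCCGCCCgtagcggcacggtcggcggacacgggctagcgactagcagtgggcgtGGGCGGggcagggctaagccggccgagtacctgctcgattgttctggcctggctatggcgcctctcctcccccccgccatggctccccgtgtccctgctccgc
Esr1, first start, chr10:4611739-4612038, plus strand: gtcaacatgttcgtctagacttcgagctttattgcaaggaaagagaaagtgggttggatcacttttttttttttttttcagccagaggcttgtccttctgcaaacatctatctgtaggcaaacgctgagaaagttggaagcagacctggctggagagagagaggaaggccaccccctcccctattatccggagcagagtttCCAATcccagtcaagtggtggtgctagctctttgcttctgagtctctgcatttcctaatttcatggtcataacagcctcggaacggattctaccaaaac
Esr1, second start, chr10:4709908-4710207, plus strand: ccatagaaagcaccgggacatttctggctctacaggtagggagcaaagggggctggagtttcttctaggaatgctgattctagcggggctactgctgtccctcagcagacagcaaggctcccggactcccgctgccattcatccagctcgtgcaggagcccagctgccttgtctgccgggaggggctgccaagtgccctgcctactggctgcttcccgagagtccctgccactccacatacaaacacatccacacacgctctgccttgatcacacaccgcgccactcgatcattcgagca

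The Ino80 window held 1 CCAAT and 3 GGGCGG matches at a GC content of 70.0%, against a median of 52.7% over the 32851 promoter windows of that length. The first Esr1 window held 1 CCAAT match at 46.3% GC, and the second held none of the motifs searched at 59.3% GC. CCAAT was present in 37.4% and GGGCGG in 35.7% of all windows. TATAAA (13.6% of all windows), AAGATGG (6.34%) and the estrogen response element palindrome (0.07%) had no match in these 3 windows.

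The libraries held 1225, 1059 and 1092 wells after a filter on depth, with a median of 320035, 350565 and 361714 read counts per well. Levels are CPM, the counts of a gene scaled to the total of nuclear-encoded genes in the well or wells, and the main comparisons used the cardiomyocyte compartment: 560, 650 and 876 wells on days 1, 2 and 3 that were left after clusters marked as another cell type were taken out. Its summed level of 12 ventricular cardiomyocyte markers was 116059, 115927 and 111674 CPM, with none of the markers at 0. The median mitochondrial share of counts in the compartment was 41.2%, 40.8% and 21.3%. Between pairs of libraries, 247 to 278 well barcodes were shared. The compartment was held mostly by different clusters each day. On day 1, 355 wells lay in a cluster led by Ccl5, Rnf207 and Myh11 with 3 pericyte and smooth muscle markers up, and 88 in an atrial-like one. On day 2, 379 and 241 wells lay in 2 other clusters, and on day 3, 415, 284 and 165 lay in 3 further ones. With 1 library per day there was no test. The 95% intervals of levels and ratios treat reads as separate draws, and those of shares treat wells so. The reads carry no molecular identifiers and are not separate molecules, and the wells of a library share its preparation. The intervals are therefore too narrow, and they cover no difference between libraries.

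**Figure D1:**
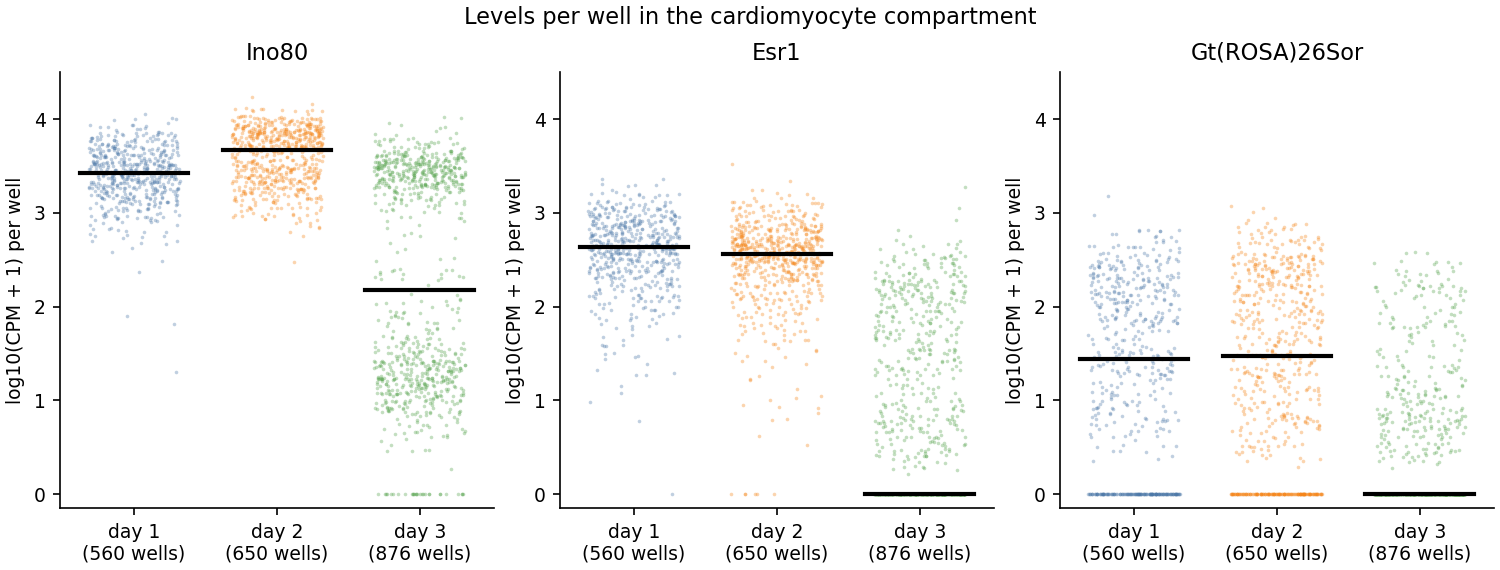
Each point is 1 compartment well; the y axis is log10(CPM + 1) and the black bars are medians. Ino80 formed a single band on days 1 and 2 and separate bands on day 3, where the median well had 152 CPM; Esr1 and Gt(ROSA)26Sor had a median of 0 on day 3.

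Ino80 was high in nearly every well on days 1 and 2 and in part of the wells on day 3. Summed over compartment wells it reached 2955 CPM on day 1 (95% interval 2946 to 2964). Day 2 had 4620 CPM (4610 to 4631), and day 3 had 1214 CPM (1210 to 1218). On day 1 the lowest well had 18.9 CPM, the median well 2648 CPM and the highest 11299 CPM. On day 2 these were 296, 4633 and 17296 CPM. Day 3 wells ran from 0 to 10661 CPM around a median of 152 CPM, so that the ranges of all 3 libraries overlapped. A count of Ino80 was found in 100% of wells on days 1 and 2 and in 96.8% (exact Clopper-Pearson 95% interval 95.4 to 97.9) on day 3.

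Esr1 was lowest on day 3 by a wider margin. The compartment had 512 CPM (508 to 516) on day 1. Day 2 followed with 425 CPM (422 to 428), and day 3 had 40.6 CPM (39.9 to 41.3). The median well had 426 and 359 CPM on days 1 and 2 and 0 on day 3, and the highest well had 2319, 3342 and 1880 CPM. Wells with a count made up 99.8%, 99.1% and 49.8% of the compartment. The day 1 and day 2 wells therefore carried Esr1 almost throughout, whereas the day 3 wells were split between wells with and without a count.

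Gt(ROSA)26Sor was the sparsest of the 3 transcripts. Its level was 94.1 CPM (92.6 to 95.7) on day 1. It was 113 CPM (111 to 114) on day 2, whereas day 3 had 14.1 CPM (13.7 to 14.6). A count was present in 73.0%, 76.8% and 33.7% of wells. The median well had 26.7, 28.8 and 0 CPM, and the highest 1522, 1185 and 383 CPM. The single well with the most counts of each gene held at most 4.24% of that gene's counts in any library.

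Per kilobase of merged annotated exons, Ino80 was the most abundant of the 3 in every library, at 434, 679 and 178 CPM per kb on days 1, 2 and 3. Gt(ROSA)26Sor followed at 55.5, 66.5 and 8.33 CPM per kb, and Esr1 was lowest at 37.5, 31.1 and 2.97 CPM per kb. A transgene that carries only part of Esr1 covers fewer bases than this length assumes. The number of Ino80 counts per Esr1 count was 5.77 on day 1 (5.72 to 5.82). On day 2 it was 10.9 (10.8 to 10.9), and day 3 had 29.9 (29.4 to 30.5). Ino80 and Esr1 thus did not keep a fixed ratio between libraries.

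From day 1 to day 2, none of the 3 genes moved by 2-fold, a size reached upward by 4.02% and downward by 1.94% of the 6437 genes tested (5.97% in all). Ino80 was 1.56-fold higher on day 2 (log2 ratio 0.64, 0.64 to 0.65), Gt(ROSA)26Sor was higher (log2 0.26, 0.23 to 0.29), and Esr1 was lower (log2 ratio -0.27, -0.28 to -0.25). Among wells with 25 to 35% mitochondrial counts, Ino80 was at 2772 CPM in 84 day 1 wells and 2742 CPM in 157 day 2 wells, a log2 ratio of -0.02, and Gt(ROSA)26Sor had a log2 ratio of -0.23. Within day 2, Ino80 stood at 1991 CPM in the 122 wells under 25% mitochondrial counts and at 7179 CPM in the 254 wells at 45% or more. Gt(ROSA)26Sor stood at 39.0 and 159 CPM and Esr1 at 412 and 437 CPM in the same wells. Wells with larger shares gave other values between the days. At 35 to 45%, Ino80 was at 2680 CPM on day 1 and 5823 CPM on day 2. At 45% or more it was at 4084 and 7179 CPM. Under 25% there were 5 day 1 wells, at 1581 CPM. The higher Ino80 level of day 2 was therefore seen at 35% or more and not at 25 to 35%. Under 25% day 2 was higher as well (1991 against 1581 CPM), but only 5 day 1 wells stood there. Within day 2, Gt(ROSA)26Sor rose with the share as Ino80 did, and Esr1 had no such gradient.

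From day 1 to day 3, 3 of 3 genes were at least 2-fold lower. Of the 6179 genes tested, 6.49% were at least 2-fold lower and 4.81% at least 2-fold higher, 11.3% in all. Esr1 was 12.6-fold lower (log2 ratio -3.66, -3.69 to -3.63), Gt(ROSA)26Sor 6.67-fold lower (log2 -2.74, -2.79 to -2.69) and Ino80 2.43-fold lower (log2 -1.28, -1.29 to -1.28). Myh6 itself was 1.21-fold lower, at 14022 and 11608 CPM. In wells with 25 to 35% mitochondrial counts, the log2 ratio of Esr1 was -4.34. Both ratios share the day 1 library, and day 3 holds control wells that cannot be told apart from induced wells by any label.

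Neighbouring genes gave other values. Setd5, a SET-domain gene next to Gt(ROSA)26Sor, was at 41.0, 55.6 and 34.1 CPM on days 1, 2 and 3, and the overlapping Thumpd3 at 19.6, 24.1 and 18.7 CPM. Syne1, the nesprin gene next to Esr1, was at 56.6, 63.1 and 69.3 CPM. Chac1, which encodes a glutathione-degrading enzyme and lies next to Ino80, was at 11.4, 6.09 and 8.47 CPM. Gm14208, Gm22591 and Gm3266, the other nearest genes, were at or near 0. Setd5, Thumpd3, Syne1 and Chac1 stayed within 2-fold between day 1 and day 3, and the first 2 were highest on day 2 and lowest on day 3, the same order as Gt(ROSA)26Sor.

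Day 3 wells fell into separate ranges of Ino80. Of the 876 compartment wells, 428 (48.9%, 45.5 to 52.2) were under 100 CPM, 46 (5.25%) were at 100 to 1000 CPM and 402 (45.9%, 42.6 to 49.3) were at 1000 CPM or above. On day 1 the same ranges held 3, 49 and 508 of 560 wells, and on day 2 they held 0, 24 and 626 of 650. Just inside and outside the boundaries, day 3 wells had 98.7 and 103.6 CPM at the lower one and 990 and 1013 CPM at the upper one, with 17 and 15 wells within 20% of each. When day 3 was clustered alone, 144 wells were called endothelial-like, 133 of them at 1000 CPM or above and none under 100 CPM. The main clustering had 19 such wells, 1 at 1000 CPM or above and 16 under 100 CPM. The compartment's share at 1000 CPM or above was then 35.2% under day 3 clustered alone. Which wells of the highest range counted as cardiomyocyte compartment thus depended on the clustering. The ranges are ranges of measured Ino80 and not genotypes. Ino80 chose them, so its levels of 18.3, 346 and 3038 CPM in the lowest, middle and highest range are a description.

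Esr1 followed the ranges. It was at 0.81 CPM (0.68 to 0.96) in day 3 wells under 100 CPM of Ino80, 42.3 CPM (38.8 to 46.0) in the middle range and 97.8 CPM (96.0 to 99.7) in wells at 1000 CPM or above. A count of Esr1 was found in 22.2%, 47.8% and 79.4% of these wells, at median depths of 436786, 331016 and 304808 counts. Per well, Esr1 reached at most 34.1 CPM in the lowest range, while the highest range ran from 0 over a median of 45.6 to 1880 CPM, so the ranges overlapped. The summed level was 120.5-fold higher at 1000 CPM or above than under 100 CPM (102 to 144; log2 ratio 6.91).

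Gt(ROSA)26Sor followed the ranges as well. It was at 1.43 CPM (1.26 to 1.63) in the lowest range, 7.97 CPM (6.50 to 9.66) in the middle range and 33.1 CPM (32.1 to 34.2) in the highest. One middle-range well held 68.0% of that range's counts. A count was found in 24.1%, 26.1% and 44.8% of wells, the highest well had 22.8, 168 and 383 CPM, and the median was 0 in every range. The highest range was 23.1-fold above the lowest (20.3 to 26.5; log2 ratio 4.53). Both genes the ranges did not use were thus at least 2-fold higher, where 23.4% of 5982 genes were 2-fold higher or more and 11.6% were 2-fold lower or more (35% in all).

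Myh6, whose promoter drives the Cre, went the other way. It was at 16230 CPM in the lowest range, 14319 CPM in the middle and 4626 CPM in the highest, a log2 ratio of -1.81 between the highest and lowest. Esr1 per 1000 Myh6 counts was 0.05 in the lowest range, 2.95 in the middle and 21.1 in the highest, against 36.5 on day 1 and 34.6 on day 2. Summed levels of some marker lists moved with the ranges too, whereas others stood closer. The 12 endothelial markers summed to 1085 and 1137 CPM in the lowest and highest range. The 10 pericyte and smooth muscle markers summed to 414 and 528 CPM. Single genes of these 2 lists above a low-level filter still differed. In the highest range 3 endothelial markers were at least 2-fold higher and 0 lower. Of the pericyte and smooth muscle markers, 4 were higher and 1 lower. Over all genes at a mean of 10 CPM, 23.4% were higher and 11.6% lower. The 12 ventricular markers summed to 134385 CPM in the lowest range and 77746 CPM in the highest, 5 of them at least 2-fold lower. The 9 atrial markers summed to 1078 and 2523 CPM, the 12 macrophage markers to 32.6 and 218 CPM, the 12 fibroblast markers to 217 and 376 CPM, and the 7 erythroid markers to 125 and 665 CPM. No ventricular, atrial, macrophage or fibroblast marker was at 0 in either range, and 2 erythroid markers were at 0 in the highest. Median mitochondrial shares were 22.2% and 19.6%. Neighbouring genes differed between the lowest and highest range as well: Chac1 was at 5.04 and 14.3 CPM (2.84-fold higher in the highest), Setd5 was 1.74-fold and Thumpd3 1.64-fold higher, and Syne1 was 2.26-fold lower. The part of these differences in the member levels was not tested.

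**Figure D2:**
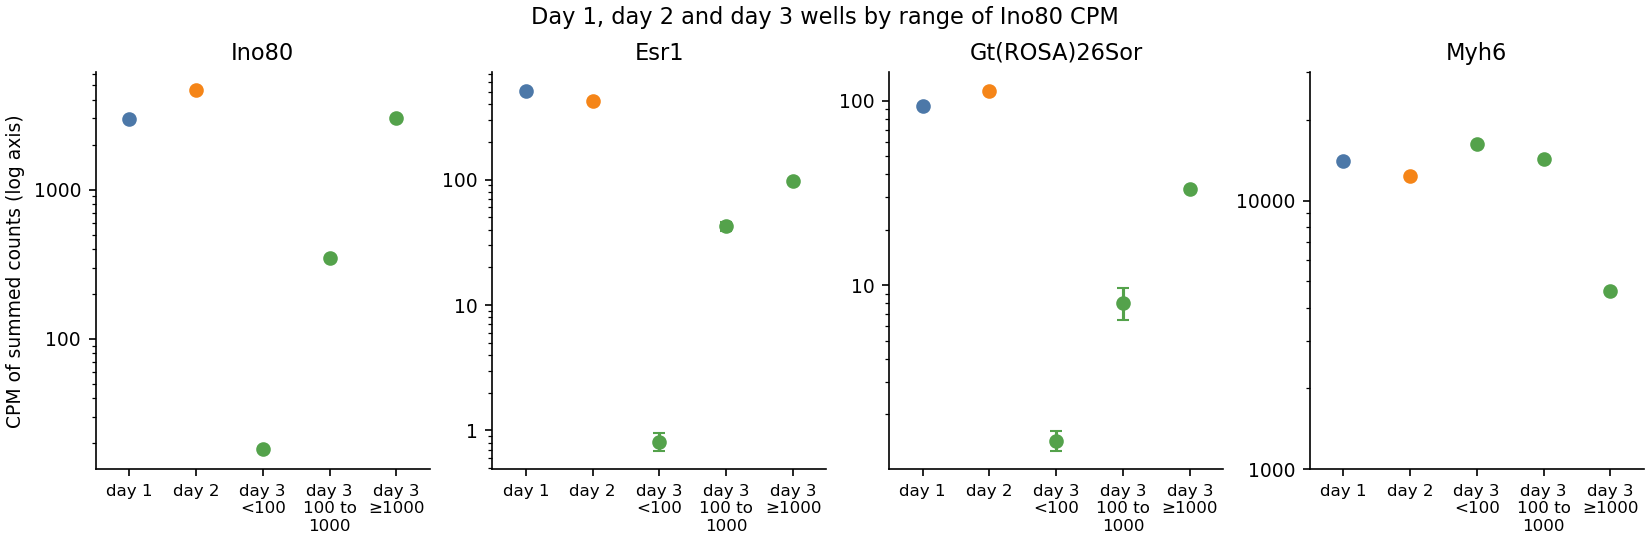
CPM of summed counts on log axes for day 1, day 2 and the 3 day 3 ranges of Ino80 (under 100, 100 to 1000, 1000 CPM or above), with exact Poisson 95% intervals, mostly smaller than the points. Esr1 stood at 0.81, 42.3 and 97.8 CPM over the ranges and Myh6 at 16230, 14319 and 4626 CPM.

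Day 3 wells with Ino80 at 1000 CPM or above were then set against the earlier libraries. Ino80 was at 3038 CPM there and 2955 CPM on day 1 (log2 ratio 0.04), and against day 2 its log2 ratio was -0.60. Esr1 was 5.23-fold lower than on day 1 (log2 -2.39, -2.42 to -2.36) and 4.35-fold lower than on day 2 (log2 -2.12). Gt(ROSA)26Sor was 2.84-fold lower than on day 1 (log2 -1.51, -1.56 to -1.45) and 3.40-fold lower than on day 2 (log2 -1.77). Of 6330 genes tested against day 1, 13.3% were lower and 13.2% higher by 2-fold or more (26.5% in all). Against day 2 these were 13.4% and 9.08% of 6398 genes (22.5% in all). Myh6 was 3.03-fold and 2.66-fold lower in the same 2 comparisons, which share the day 3 wells. The range was set on Ino80, so its own ratios follow in part from the boundary, and 1 Esr1 count came with 31.1 Ino80 counts (30.5 to 31.6) there against 5.77 on day 1.

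Esr1 in the day 3 wells under 100 CPM of Ino80 came to 135 counts over 428 wells, and Gt(ROSA)26Sor to 238 counts. The largest well held 3.70% and 5.04% of them. Against day 1, Esr1 was 631-fold, Gt(ROSA)26Sor 65.7-fold and Ino80 162-fold lower in these wells. Ino80 still had a count in 93.5% of them, around a median of 15.7 CPM.

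Co-detection followed the same split, as the share of wells with each single gene did. All 3 genes had a count in 408 of 560 day 1 wells (72.9%, 69.0 to 76.5), 497 of 650 day 2 wells (76.5%, 73.0 to 79.7) and 170 of 876 day 3 wells (19.4%, 16.8 to 22.2). Of the day 3 wells with all 3, 142 were in the range at 1000 CPM of Ino80 or above (35.3% of its 402 wells), 7 in the middle range and 21 under 100 CPM (4.91%). Wells with none of the 3 numbered 0, 0 and 20. When 30000 counts were drawn from every well (2, 1 and 7 wells had fewer and were dropped), all 3 genes were found in 46.1%, 45.3% and 7.02% of wells.

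Pairs of the 3 genes were then counted. On day 1, 99.8% of wells held both Ino80 and Esr1, and 73.0% both Ino80 and Gt(ROSA)26Sor. Every day 1 well had a count of Ino80, so these are the shares of wells with Esr1 and with Gt(ROSA)26Sor. On day 3, Esr1 was found in 50.7% of the 848 wells with Ino80 and in 21.4% of those without. After thinning these shares were 40.2% and 2.08%. Gt(ROSA)26Sor was found after thinning in 25.5% of day 3 wells with Esr1 and 8.41% of those without. Within the highest Ino80 range it was found in 44.5% of wells with Esr1 and 45.8% of wells without it, before thinning. Inside that range, wells with and without Esr1 held Gt(ROSA)26Sor at close shares.

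**Figure D3:**
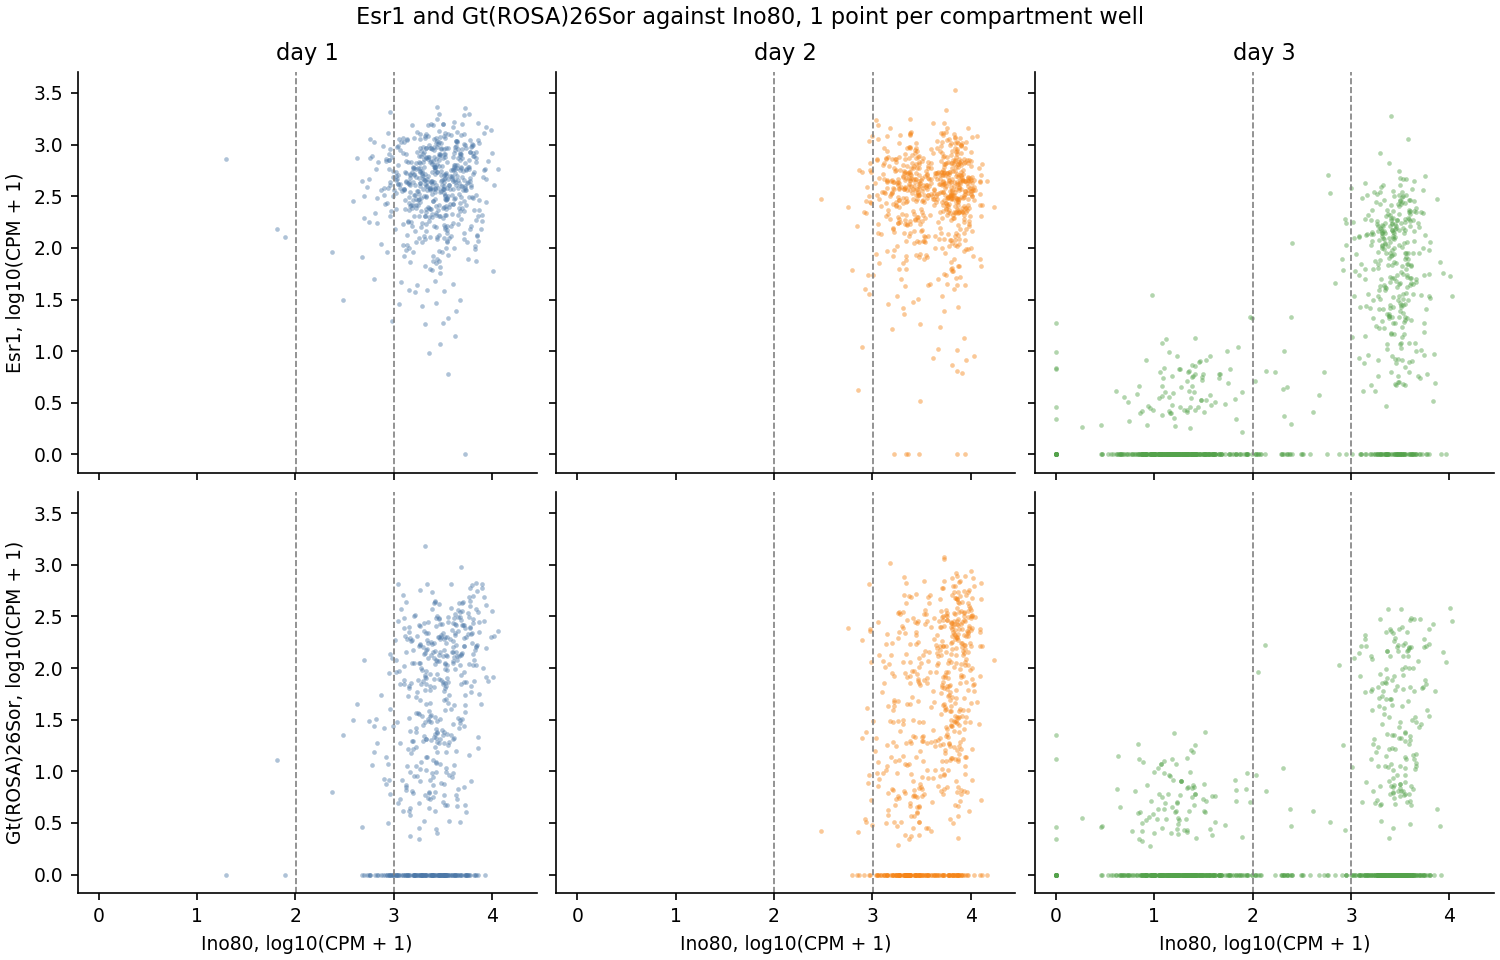
Esr1 (upper row) and Gt(ROSA)26Sor (lower row) against Ino80 in each compartment well, by day, all on a log10(CPM + 1) scale; dashed lines mark 100 and 1000 CPM of Ino80. On day 3 the wells lie in separate clouds, and within the right-hand cloud Esr1 has no slope (rho = -0.02).

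Within libraries the 3 genes were weakly related, apart from the day 3 split. Spearman's rho over compartment wells is given as a description; the wells of a library share its preparation, and both values of a well share its depth. For Ino80 and Esr1, rho was 0.08 on day 1 (560 wells), 0.01 on day 2 (650 wells) and 0.60 on day 3 (876 wells). Within the day 3 wells at 1000 CPM of Ino80 or above it was -0.02, and within those under 100 CPM it was 0.10. The day 3 value therefore rests on the difference between the ranges. Ino80 and Gt(ROSA)26Sor had a rho of 0.29, 0.35 and 0.28 on days 1, 2 and 3. In wells at 1000 CPM or above it was 0.23, 0.36 and 0.14, and in day 3 wells under 100 CPM it was -0.01. With total count and mitochondrial share taken out of the ranks it was 0.27, 0.10 and 0.32. Esr1 and Gt(ROSA)26Sor had a rho of 0.05, -0.04 and 0.18.

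Other measures moved with Ino80. Its rho with the mitochondrial share was 0.35, 0.75 and -0.09 over the 3 days, and with Myh6 it was 0.57, 0.63 and -0.70. Both day 3 signs turned at 1000 CPM of Ino80 or above, where rho was 0.28 with the mitochondrial share and 0.21 with Myh6. Under 100 CPM it was 0.30 with the share and near 0 with Myh6 (0.07). With total count and mitochondrial share taken out of the ranks, the day 2 value with Myh6 was 0.37. The day 3 values with Myh6 were then 0.15 at 1000 CPM or above and -0.02 under 100 CPM. Esr1 had a rho with Myh6 of -0.03, 0.00 and -0.58 over the 3 days, and with the mitochondrial share of -0.02, -0.02 and -0.23. Within the highest day 3 range these were -0.01 and -0.12. So on days 1 and 2 Ino80 ranked with Myh6 over wells, and Esr1 had a rho near 0.

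Ranking the wells of each library at 1000 CPM of Ino80 or above by Ino80 and dividing them into 4 equal groups showed the same in levels. From the first group to the fourth, Ino80 stood at 1498 and 5847 CPM on day 1, 1800 and 8866 CPM on day 2, and 1751 and 4876 CPM on day 3. Esr1 stood at 486 and 588 CPM on day 1, 422 and 408 CPM on day 2, and 104 and 98.2 CPM on day 3. Gt(ROSA)26Sor stood at 92.1 and 166 CPM on day 1, 66.0 and 171 CPM on day 2, and 19.8 and 58.1 CPM on day 3. It did not climb evenly: on day 1 the middle groups had 75.3 and 81.9 CPM, both below the first. Esr1 stood close over the groups, at 484 to 588 CPM on day 1, 408 to 463 CPM on day 2 and 90.6 to 104 CPM on day 3.

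**Figure D4:**
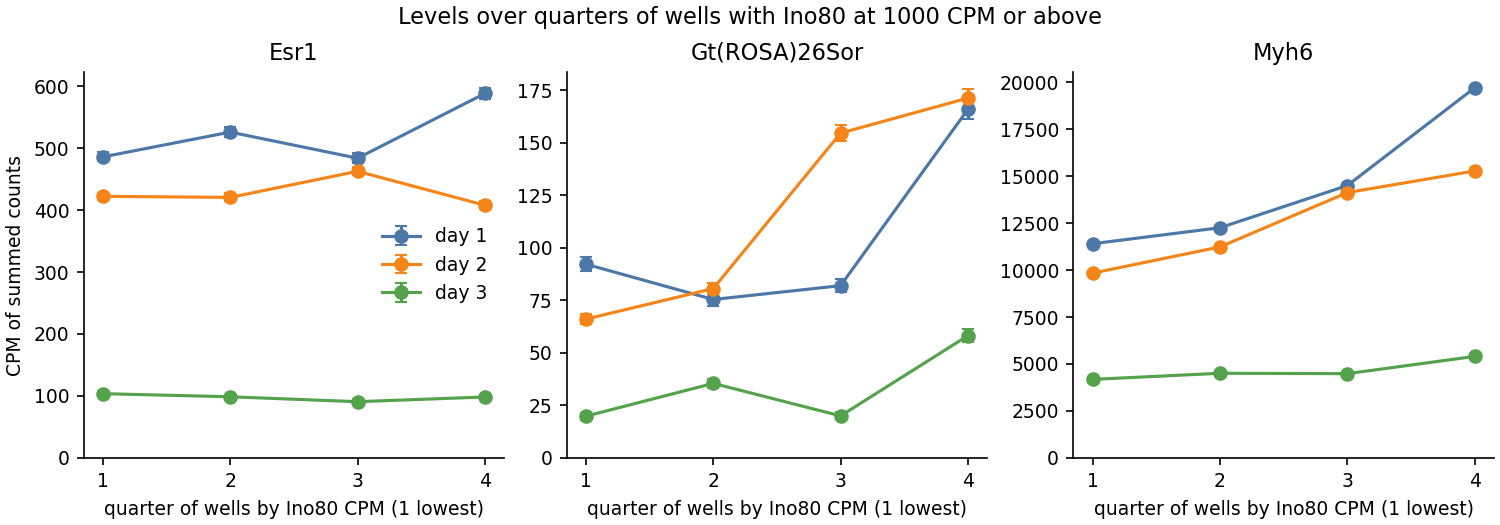
CPM of summed counts over 4 equal groups of wells ranked by Ino80 (1 lowest), among compartment wells with Ino80 at 1000 CPM or above; bars are exact Poisson 95% intervals and lines join groups of a library. In the fourth group Gt(ROSA)26Sor reached 166, 171 and 58.1 CPM on days 1, 2 and 3, and Myh6 rose with Ino80 on days 1 and 2.

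Likeness was ranked by the lowest rho of the 3 libraries, among 3473 or 3474 genes at 20 CPM or more with a count in 25% of wells of every library. For Gt(ROSA)26Sor the gene ranked first was Ino80 itself, ahead of Des (0.19, 0.26 and 0.22 on days 1, 2 and 3), Synpo2l, Zfp568, Wfs1, Gys1, Vcp and Flnc. For Ino80 the first were Des, the desmin intermediate filament gene (0.34, 0.40 and 0.66), and Flnc, the filamin C gene (0.33, 0.36 and 0.66). Tgoln1, Vcp, Eef2, Ccnd2, Brd2 and Ahnak followed, with lowest values of 0.24 to 0.29. Gt(ROSA)26Sor was not among the genes ranked for Ino80, because at 14.1 CPM on day 3 it fell under the 20 CPM limit. Its lowest rho with Ino80 was 0.28. Most opposite to Ino80 were Fabp3 (heart fatty acid-binding protein; -0.43, -0.50 and -0.75), Tnni3 (cardiac troponin I), Usmg5 and Cox7a1. Slc25a4, Fabp3, Tnni3 and Mpc2 were most opposite to Gt(ROSA)26Sor, at -0.19 to -0.33.

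Esr1 had no close match. Its first gene, Myh7 (beta myosin heavy chain), had 0.31, 0.21 and 0.13, and Resf1, Fth1, Actg1, Atp6ap1, Gapdh, Bclaf1 and Prpsap1 had lowest values of 0.09 to 0.12. Usmg5, Fxr1, Aldh2 and Kcnj3 were most opposite, with values no nearer to 0 than -0.07. The median lowest rho over all genes was -0.05 for Esr1 and Ino80 and 0.01 for Gt(ROSA)26Sor. Ranked by the mean of the 3 libraries, 4, 3 and 4 of the 8 genes most like Ino80, Esr1 and Gt(ROSA)26Sor remained among the first 8.

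Most other subunits of the INO80 complex that passed a filter on level differed by less than Ino80. Of 14 subunits, 7 passed the filter of a mean of 10 CPM in the day 2 to day 1 and day 3 to day 1 comparisons. None was 2-fold apart on day 2 (median log2 ratio -0.14, against 0.11 over all genes), with 3 higher and 4 lower. Yy1 rose by slightly more than Ino80, from 36.6 to 59.2 CPM (log2 ratio 0.69, against 0.64 for Ino80). On day 3, 1 of 7, Ino80d, was at least 2-fold lower than on day 1 (13.7 and 6.76 CPM), against 6.49% of all genes, and the list's median was -0.33 against -0.12. Between the day 3 ranges, 6 subunits passed the filter; Ino80c (14.1 and 30.6 CPM) and Mcrs1 (6.39 and 14.1 CPM) were at least 2-fold higher at 1000 CPM of Ino80 or above, none was 2-fold lower, and the median was 0.43 against 0.26. Over all genes 23.4% were at least 2-fold higher in this comparison. Actr8, an actin-related subunit, was at 42.5 CPM on day 1, 31.3 CPM on day 2 and 25.6 CPM on day 3. Ruvbl1, an ATPase that other remodellers also contain, stood at 14.9, 15.7 and 20.2 CPM.

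Other lists around the members were read in the same comparisons. Of 10 other remodeller ATPases, 8 passed the filter in the day 2 to day 1 comparison with none 2-fold apart (median -0.06). On day 3, 2 of 7 were at least 2-fold lower than on day 1, Chd4 (243 and 111 CPM) and Ep400 (17.4 and 8.66 CPM), against 6.49% of all genes. All 7 were lower, and their median was -0.51 against -0.12 over all genes. Between the day 3 ranges none of 6 was 2-fold apart (median 0.08). Of 8 nuclear receptors related to Esr1, 3 passed on day 2 with none 2-fold apart (median 0.51) and 2 passed on day 3 with none 2-fold apart (median 0.08). Between the ranges 2 passed, and 1 of them, the estrogen-related receptor Esrrb, was at least 2-fold lower at 1000 CPM of Ino80 or above (19.1 and 5.79 CPM in the lowest and highest range, median of both -0.99), against 11.6% of all genes. Esr2, the other estrogen receptor, was at or near 0 throughout.

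Of 10 co-factors and classical targets of the estrogen receptor, 8 passed the filter on days 2 and 3 and none was 2-fold apart from day 1 (median 0.39 and 0.03). Greb1, a classical target, did not pass and was at 2.11, 0.23 and 0.09 CPM on days 1, 2 and 3. The 5 heart muscle reference genes were within 2-fold of day 1 on both later days (median -0.04 and -0.11). Between the ranges 3 of 5, Myh6, Actc1 and Ttn, were at least 2-fold lower at 1000 CPM of Ino80 or above, against 11.6% of all genes, with a median of -1.44 against 0.26.

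The members were next read in wells that clustered by markers of other cell types, where a transgene under the Myh6 promoter is not known to be active. Macrophage-like wells numbered 99, 78 and 85 on days 1, 2 and 3, fibroblast-like wells 145, 132 and 42, and endothelial-like wells 401, 171 and 19. Macrophage-like wells had 7026, 7947 and 3261 CPM summed over 12 macrophage markers, against 115, 119 and 109 CPM in the compartment. Fibroblast-like wells had 9169, 8360 and 6970 CPM over 12 fibroblast markers against 462, 275 and 278 CPM. Endothelial-like wells stood less far apart, at 2086, 2303 and 2268 CPM over 12 endothelial markers against 700, 884 and 1120 CPM, and none of those markers was among the 10 leading genes of the clusters that held most of the day 1 and day 2 wells. All of these classes also carried 72034 to 116637 CPM of the 12 ventricular markers.

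All 3 genes had counts in each of the other classes in every library. In day 3 endothelial-like wells Esr1 had only 3 counts and Gt(ROSA)26Sor only 4, at or near the 3 counts that a 0 allows. The levels of the 3 genes in macrophage-like wells were 56.0% to 102% of the compartment. In macrophage-like wells, Ino80 stood at 2426 CPM (2406 to 2446), 3935 CPM (3909 to 3961) and 1108 CPM (1096 to 1121) on days 1, 2 and 3, which is 82.1%, 85.2% and 91.3% of the compartment. Esr1 stood at 287, 352 and 41.5 CPM, or 56.0%, 82.7% and 102%. Gt(ROSA)26Sor stood at 53.6, 68.2 and 13.8 CPM, or 57.0%, 60.5% and 97.8%. Myh6 was at 11312, 9970 and 9896 CPM in the same wells, or 80.7%, 81.1% and 85.2%. Wells with a count of Esr1 were 96.0%, 100% and 57.6% of macrophage-like wells, at median depths of 314580, 359150 and 367953 counts. On day 3 the Ino80 level relative to the compartment turned above 1 when per-well CPM were averaged (log2 0.02) and when each library was clustered alone (log2 0.10).

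Per 1000 Myh6 counts, macrophage-like wells had 214, 395 and 112 Ino80 counts on days 1, 2 and 3, against 211, 376 and 105 in the compartment. Esr1 counts were 25.4, 35.3 and 4.19 per 1000 Myh6 counts, against 36.5, 34.6 and 3.496. Gt(ROSA)26Sor counts were 4.74, 6.84 and 1.39, against 6.71, 9.16 and 1.22. The share of cardiomyocyte RNA in these levels was not tested. Ino80 thus stood closer to the compartment ratio than Esr1 and Gt(ROSA)26Sor did on day 1.

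Fibroblast-like wells had Ino80 at 2367, 4299 and 1787 CPM, Esr1 at 341, 304 and 31.8 CPM and Gt(ROSA)26Sor at 52.7, 89.8 and 5.97 CPM on days 1, 2 and 3. Day 1 and day 2 wells lay mostly in 1 cluster led by Ifi205, Dcn and Gsn, and 33 of the 42 day 3 wells in another led by Timp1 and Postn. Clustered within its own library, day 3 had 99 fibroblast-like wells with Ino80 at 902 CPM, so the day 3 level depended on which wells were called fibroblast-like. Endothelial-like wells had Ino80 at 2052, 5646 and 143 CPM, Esr1 at 351, 347 and 0.45 CPM and Gt(ROSA)26Sor at 53.5, 77.6 and 0.60 CPM. Different clusters held most of these wells on each day. On day 2 Ino80 in endothelial-like wells was 122% of the compartment, and below it under each of the 4 other ways of clustering. On day 3 only 19 wells were endothelial-like, 16 of them under 100 CPM, and 1 well held 67.7% of their Ino80 counts; clustered within its own library, day 3 had 144 such wells, none under 100 CPM, with Ino80 at 2671 CPM. The day 3 endothelial-like level is therefore not fixed by these data.

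**Figure D5:**
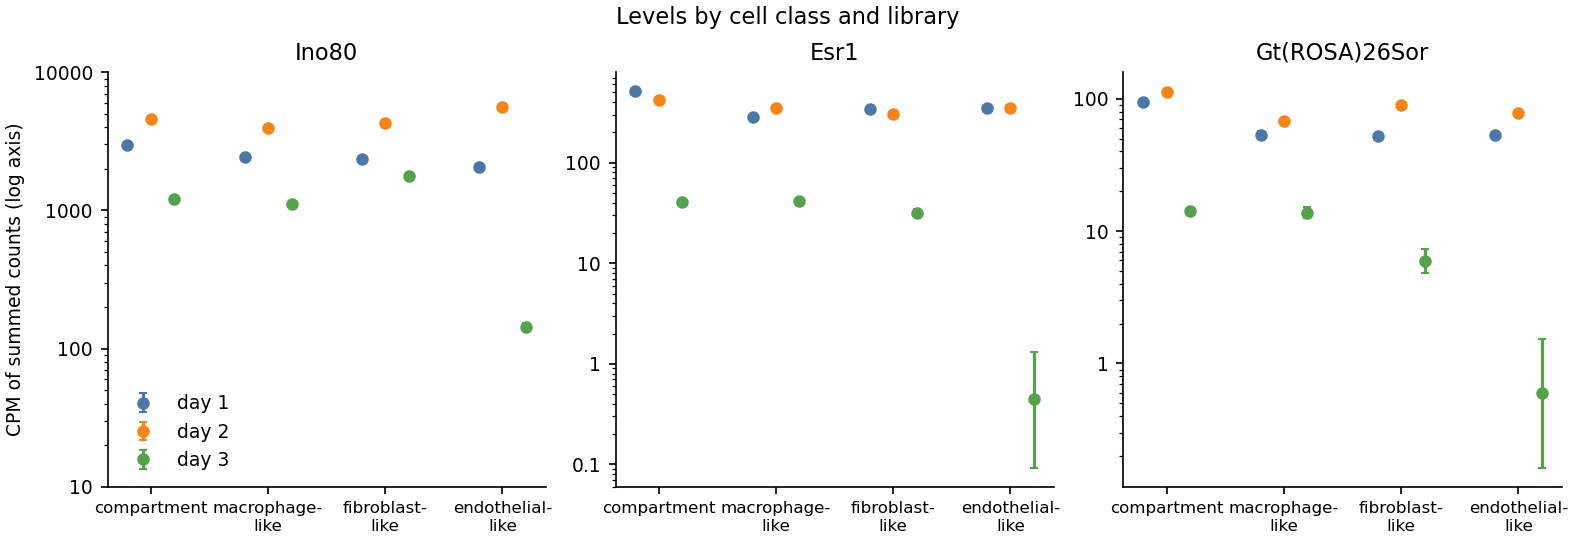
CPM of summed counts on log axes in the compartment and in macrophage-, fibroblast- and endothelial-like wells, by day, with exact Poisson 95% intervals. Ino80 ran from 2052 to 2955 CPM on day 1 and from 3935 to 5646 CPM on day 2. On day 1, Gt(ROSA)26Sor stood at 56.0% to 57.0% of the compartment in the other classes. The day 3 endothelial-like points rest on 19 wells.

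The day 3 split recurred among macrophage-like wells. Of 85 wells, 33 were under 100 CPM of Ino80, 9 in the middle range and 43 at 1000 CPM or above. Esr1 was at 4.72 CPM in the lowest range, with 80.6% of its counts from a single well, and at 82.5 CPM in the highest, a ratio of 17.5-fold (13.75 to 22.5). Gt(ROSA)26Sor was at 1.18 and 31.7 CPM (26.9-fold, 16.8 to 45.9). Myh6 was at 14691 and 4322 CPM in the same wells. Fibroblast-like wells had 7, 5 and 30 wells in the ranges, with Esr1 at 0.94 CPM in the lowest and 43.5 CPM in the highest, Gt(ROSA)26Sor at 1.56 and 7.85 CPM and Myh6 at 13558 and 2811 CPM. The fibroblast-like ratios rest on 7 wells in the lowest range and have wide intervals. They were 46.4-fold (15.8 to 226) for Esr1 and 5.02-fold (2.07 to 15.8) for Gt(ROSA)26Sor. In both classes Esr1 and Gt(ROSA)26Sor were higher and Myh6 lower in wells at 1000 CPM of Ino80 or above, as in the compartment. On days 1 and 2, no macrophage- or fibroblast-like well was under 100 CPM.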

How the data were processed

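Per the labels, single live heart cells were dispensed and imaged on the iCELL8 platform and their polyA RNA was amplified in wells and sequenced. The authors deposited untransformed read counts, genes by wells, in 1 table per library. The submitters' processing notes name cutadapt, STAR, featureCounts and mm10; for versions, strand setting and duplicate handling, nothing is given in the sources used here. Symbols and positions are from GENCODE M21, where 55141 of 55401 identifiers were found.

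Wells with 1000 counts and 300 genes were kept (18 left out). Counts of kept wells, the 3 members excluded, were clustered together in scanpy 1.11.5 (scaled log values, 2000 variable genes, 30 principal components, 15 neighbours, Leiden through igraph 0.11.9 at resolution 1.0, seed 0). Resolution 0.5 had been planned; 1.0 was taken after marker levels showed that 0.5 left most endothelial-like wells in the compartment, and 0.5 is given as an alternative. A cluster was named when 3 or more markers of 1 of 12 lists were 2-fold up at 20 CPM, these made up 0.5 of the list or 3 of its markers were among the 10 leading genes, and no other list had more among those 10; compartment wells are all unnamed or atrial-like wells. Doublets were not called.

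CPM are summed counts over the total of nuclear-encoded genes. Intervals are 95% exact Poisson (CPM), binomial (ratios) or Clopper-Pearson (shares), and a count of 0 was set to 3 in ratios. With 1 library per group no test was made. Named genes are the members, 6 lists, nearest genes, and the 8 most like and 4 most opposite genes per member. The count-ratio step was tested on simulated data. The members and lists were chosen with earlier results of these data known. Alternatives covered depth filters, scaling, well sets, boundaries, clustering, detection and correlation measures. For the list of estrogen receptor co-factors and targets, the comparison between the day 3 ranges is not reported here.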

Additional observations from a re-analysis of the deposited data

Results flagged for a closer look

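The tables carry the added sequences EGFP and 3xFlag, which enter no comparison above. In compartment wells EGFP had 324 counts on day 1, 219 on day 2 and 526 on day 3, all above the 3 counts that a 0 allows, in 33, 38 and 45 wells. A single well held 30.6%, 23.3% and 27.6% of these counts. On day 3, 521 of the EGFP counts lay in wells at 1000 CPM of Ino80 or above and 3 in wells under 100 CPM, a level of 4.53 against 0.02 CPM. The tag 3xFlag had 11, 5 and 21 counts in 4, 5 and 8 wells, also above 3 counts. The labels do not say which construct, if any, carries these sequences.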

How the results depend on the processing

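Of 168 alternative values of the main results, 67 stayed within the 95% interval of the reported value, 92 lay outside it and 9 reversed a reported direction. One of the 92, the day 2 correlation of Ino80 and Esr1, went from 0.01 to -0.11. The intervals treat reads or wells as separate draws and are narrow, and those of correlations are Fisher intervals over wells. The direction of all 3 day 3 to day 1 ratios and of both ratios between the Ino80 ranges held under every alternative run for them. The day 2 rise of Ino80, the endothelial-like level of day 2, the macrophage-like level of day 3 and the fibroblast- and endothelial-like levels of day 3 changed sign under at least 1 alternative, as did the day 2 ratio of Gt(ROSA)26Sor, the endothelial-like Esr1 level of day 2, the macrophage-like Esr1 and Gt(ROSA)26Sor levels of day 3, the day 3 correlations of Ino80 with both genes and of Esr1 with Gt(ROSA)26Sor, and the day 2 correlations of Esr1 with both genes, which were near 0. The cause was not tested. No paired analysis was possible because each group has 1 library. Size factors shifted all log2 ratios of day 3 to day 1 by 0.13 and those between the ranges by -0.53. Ratios of a class are to the compartment of the same day. With 1000 variable genes, the log2 ratios were -0.19, -0.38, -0.23 (Ino80, macrophage-like, day 1, 2, 3), -0.22, -0.27, -0.45 (Ino80, fibroblast-like, day 1, 2, 3) and -0.21, -0.22 (Ino80, endothelial-like, day 1, 2). With the depth filter at 5000 counts and 1000 genes, the log2 ratios were 0.73 (Ino80, day 2 to day 1), -1.32 (Ino80, day 3 to day 1), -2.82 (Gt(ROSA)26Sor, day 3 to day 1) and -0.31, -0.10 (Ino80, macrophage-like, day 2, 3). With the depth filter at 5000 counts and 1000 genes, the log2 ratios were -0.29, -0.20 (Ino80, fibroblast-like, day 1, 2) and -0.50, -0.14 (Ino80, endothelial-like, day 1, 2). With CPM over all genes, the log2 ratios were 0.70 (Ino80, day 2 to day 1), -0.91 (Ino80, day 3 to day 1), -3.28 (Esr1, day 3 to day 1) and -2.36 (Gt(ROSA)26Sor, day 3 to day 1). With CPM over all genes, the log2 ratios were 4.15 (Gt(ROSA)26Sor, the upper to the lower range), -0.23, -0.15, -0.074 (Ino80, macrophage-like, day 1, 2, 3), -0.28, -0.047 (Ino80, fibroblast-like, day 1, 2) and -0.49, 0.16 (Ino80, endothelial-like, day 1, 2). With CPM over all genes, the correlation was -0.11 (Ino80 and Esr1, day 2) and 0.27 (Ino80 and Gt(ROSA)26Sor, day 2). At Leiden resolution 0.5, the log2 ratios were -0.13, -0.30, -0.091 (Ino80, macrophage-like, day 1, 2, 3), -0.16, -0.18, -0.33 (Ino80, fibroblast-like, day 1, 2, 3), -0.46, -0.26 (Ino80, endothelial-like, day 1, 2) and 0.17 (Esr1, endothelial-like, day 2). As Pearson on log2(CPM + 1), the correlation was 0.67 (Ino80 and Esr1, day 3) and 0.36 (Ino80 and Gt(ROSA)26Sor, day 3). With a count of 5 or more as detection, the shares were 52.7, 50.6, 8.45 (percent with all 3, day 1, 2, 3). Adjusted for total count and mitochondrial share, the correlation was 0.098 (Ino80 and Gt(ROSA)26Sor, day 2). Over all kept wells, the log2 ratios were 0.87 (Ino80, day 2 to day 1), -1.13 (Ino80, day 3 to day 1), -3.49 (Esr1, day 3 to day 1) and -2.51 (Gt(ROSA)26Sor, day 3 to day 1). Over all kept wells, the log2 ratios were 6.35 (Esr1, the upper to the lower range). Over all kept wells, the correlation was 0.22, 0.27 (Ino80 and Gt(ROSA)26Sor, day 1, 2). Over all kept wells, the shares were 67.3 (percent with all 3, day 1). With boundaries at 200 and 2000 CPM, the shares were 36.2 (percent of day 3 wells at the upper boundary or above). With boundaries at 200 and 2000 CPM, the log2 ratios were 4.23 (Gt(ROSA)26Sor, the upper to the lower range). With classes called within each library, chosen after seeing the data, the log2 ratios were 0.80 (Ino80, day 2 to day 1), -1.64 (Ino80, day 3 to day 1), -3.96 (Esr1, day 3 to day 1) and -3.13 (Gt(ROSA)26Sor, day 3 to day 1). With classes called within each library, chosen after seeing the data, the log2 ratios were -0.30, -0.39, 0.10 (Ino80, macrophage-like, day 1, 2, 3), -0.38, -0.31, -0.077 (Ino80, fibroblast-like, day 1, 2, 3), -0.58, -1.07, 1.49 (Ino80, endothelial-like, day 1, 2, 3) and 1.48 (Esr1, endothelial-like, day 3). With classes called within each library, chosen after seeing the data, the log2 ratios were 1.38 (Gt(ROSA)26Sor, endothelial-like, day 3). With classes called within each library, chosen after seeing the data, the shares were 35.2 (percent of day 3 wells at the upper boundary or above). With a mean of 1 CPM or more, the genes at least 2-fold apart numbered 2181 (day 2 over day 1), 2688 (day 3 over day 1) and 5285 (day 3 1000 or above over under 100). With a mean of 50 CPM or more, the genes at least 2-fold apart numbered 59 (day 2 over day 1), 145 (day 3 over day 1) and 702 (day 3 1000 or above over under 100). As the mean of per-well CPM, the log2 ratios were 0.68 (Ino80, day 2 to day 1), -1.09 (Ino80, day 3 to day 1), -3.42 (Esr1, day 3 to day 1) and -2.53 (Gt(ROSA)26Sor, day 3 to day 1). As the mean of per-well CPM, the log2 ratios were 6.58 (Esr1, the upper to the lower range), -0.27, -0.26, 0.021 (Ino80, macrophage-like, day 1, 2, 3), -0.29 (Ino80, fibroblast-like, day 1) and 0.23 (Ino80, endothelial-like, day 2). With median-of-ratios size factors, the log2 ratios were 0.58 (Ino80, day 2 to day 1), -1.16 (Ino80, day 3 to day 1), -3.53 (Esr1, day 3 to day 1) and -2.61 (Gt(ROSA)26Sor, day 3 to day 1). Thinned to 30000 counts, the shares were 46.1, 45.3, 7.02 (percent with all 3, day 1, 2, 3). In wells with 25 to 35% mitochondrial counts, the log2 ratios were -0.016 (Ino80, day 2 to day 1), -1.17 (Ino80, day 3 to day 1), -4.34 (Esr1, day 3 to day 1) and -0.23 (Gt(ROSA)26Sor, day 2 to day 1). In wells with 25 to 35% mitochondrial counts, the log2 ratios were -2.29 (Gt(ROSA)26Sor, day 3 to day 1). In wells with Ino80 at 1000 CPM or above, the correlation was -0.023 (Ino80 and Esr1, day 3), 0.14 (Ino80 and Gt(ROSA)26Sor, day 3) and -0.030 (Esr1 and Gt(ROSA)26Sor, day 3). In wells with Ino80 under 100 CPM, the correlation was 0.10 (Ino80 and Esr1, day 3), -0.013 (Ino80 and Gt(ROSA)26Sor, day 3) and -0.041 (Esr1 and Gt(ROSA)26Sor, day 3). Without the top well, the log2 ratios were 0.66 (Ino80, day 2 to day 1), -3.69 (Esr1, day 3 to day 1), -0.32, -0.20 (Ino80, macrophage-like, day 1, 3) and -0.13 (Ino80, fibroblast-like, day 2).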

Other observations

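EGFP was also found outside the compartment. Macrophage-like wells had 139 counts in 2 of 99 wells on day 1, and fibroblast-like wells 249 counts in 5 of 145 wells. Endothelial-like wells had 290 counts in 9 of 171 wells on day 2. Ino80 and Gt(ROSA)26Sor, although left out of the clustering genes, were among the 10 leading genes of 1 compartment cluster of 106, 379 and 3 wells on days 1, 2 and 3, whose first genes were Igkc and Igha.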
